A study of Mus musculus with 24 samples.

Results

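The 10 genes described here encode the core of the desmosome and a membrane protein that desmosomes need: the desmogleins Dsg2 and Dsg3, the desmocollins Dsc2 and Dsc3, the plakophilins Pkp1, Pkp2 and Pkp3, plakoglobin (Jup), desmoplakin (Dsp) and Perp. They were taken as a named list from the 35855 genes to which the deposited transcripts were summed. RNA was measured in 24 bulk libraries of the SmartSeq2 type, each made from 1000 tracheal cells of naive wild-type (WT) female C57BL/6 mice. The sort gave 3 groups of 8 libraries, which the labels call BCAM HI, BCAM LO and DIFFERENTIATED EPCS and which are written here as BCAM high, BCAM low and differentiated. BCAM is a laminin-binding surface protein, and the series title presents the BCAM groups as subsets of basal cells, the progenitors of the airway lining. No treatment, transgene or allele separates the groups. Neither the age of the mice nor the number pooled for a library is stated, so the p-values measure the spread between these libraries, part of which may be technical.

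Desmosomes are button-like junctions that tie the keratin filaments of neighbouring epithelial cells together. Desmogleins and desmocollins are cadherins that meet in the gap between cells. Inside the cell they bind the armadillo proteins plakoglobin and the plakophilins, which in turn hold desmoplakin, the plakin that grips the keratins. Perp is a tetraspan membrane protein, a target of p53 and p63, that is required for stable desmosomes in stratified epithelia. Stratified layers are known for Dsg3, Dsc3 and Pkp1, while Dsg2, Dsc2 and Pkp2 are the isoforms of simple epithelia and heart.

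Most of these genes have several annotated transcripts, and in Dsp the choice between them changes the protein. Coordinates and transcripts are those of the GENCODE M21 annotation on mouse build GRCm38, while the submitters' processing notes name GRCm39. Dsp-201 encodes the long desmoplakin and Dsp-202 the short form, whose rod domain is truncated. Exon 23 of the 24 exons of Dsp ends at chr13:38193655 in Dsp-201, but an earlier splice donor ends it at chr13:38191858 in Dsp-202, which leaves out 1797 coding bases (599 residues). The sequences on the plus strand across that donor are shown because a read across it tells the forms apart. Lower case marks the 30 bases that both share, and capitals mark the 30 bases that follow in each transcript, still within exon 23 in Dsp-201 and from exon 24 in Dsp-202.
Dsp-201: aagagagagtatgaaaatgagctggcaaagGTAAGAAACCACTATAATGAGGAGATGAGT
Dsp-202: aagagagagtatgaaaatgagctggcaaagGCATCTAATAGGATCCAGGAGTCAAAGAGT

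On the same build, the cadherin genes share a stretch of chromosome 18: Dsc3 at 19960930 to 20002351, Dsc2 at 20030633 to 20059554, Dsg3 at 20510274 to 20547459 and Dsg2 at 20558074 to 20604521. Dsp lies on chromosome 13 (38151294 to 38198577), Pkp1 on chromosome 1 (135871395 to 135919207), Pkp2 on chromosome 16 (16213318 to 16272712), Pkp3 on chromosome 7 (141078218 to 141090510), Jup on chromosome 11 (100368958 to 100397763) and Perp on chromosome 10 (18845020 to 18857073).

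A library held between 1824619 and 4440072 estimated counts, and 12211 genes had enough counts to be tested. Levels are given in CPM (counts relative to the scaled library total, TMM) within a gene and in TPM (deposited values, which also correct for transcript length) between genes. A gene is called at an adjusted p under 0.05 in edgeR's quasi-likelihood test (edgeR QL) with Benjamini-Hochberg adjustment over all genes tested. Each group holds 5 libraries of batch 1 and 3 of batch 2, a label whose meaning is not given. The basal keratin gene Krt5 followed the labels. It lay at 1262 to 2135 CPM in BCAM high, at 701 to 1122 CPM in BCAM low and at 0 to 2.78 CPM in differentiated libraries. The sum of 8 basal genes, Krt5 among them, split the groups less clearly. The BCAM groups overlapped in it, at 5198 to 7933 CPM in BCAM high and 5024 to 5531 CPM in BCAM low. Differentiated libraries held 241 to 2423 CPM of these basal genes. The differentiated group held transcripts of several cell types and split by batch. The summed level of 7 secretory genes had a median of 338614 CPM in batch 1 and 19885 CPM in batch 2, and that of 5 thyroid genes 15632 CPM and 82832 CPM. That of 4 parathyroid genes ran from 15.6 to 29215 CPM over the differentiated libraries.

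Against the differentiated cells, desmosome transcripts were higher in both BCAM groups, with the exception of Pkp2, which was lower. In BCAM high, 9 of the 10 genes rose and 1 fell, where 41.3% of all genes tested were called, 19.4% higher and 22.0% lower. Of the same genes 8 rose in BCAM low, Pkp2 fell and Jup did not pass, where 33.5% of all genes were called, 16.3% higher and 17.1% lower. The median log2 fold change of the 10 genes was 1.72 in BCAM high and 1.59 in BCAM low, beside 0.02 over all genes in each. Dsg3, Dsc3 and Pkp1 reached the level of the filter on low counts (3.72 CPM in 8 libraries) through the BCAM groups, so a difference from differentiated cells was built into their being tested, and the counts and medians over the 10 are a description. Of the 7 genes at that level in all libraries, 6 rose and 1 fell in BCAM high (median 1.36), and 5 rose, 1 fell and 1 was not called in BCAM low (median 0.89). Libraries of BCAM high did not overlap differentiated libraries for 7 higher genes and Pkp2, where 13.4% of all genes did not overlap (6.10% higher and 7.30% lower). Those of BCAM low did not overlap them for 7 higher genes (7.27% of all genes, 3.44% higher and 3.83% lower). The 7 were the same in both comparisons. Dsc2, Dsp, Pkp3 and Perp were at the filter level in all libraries. The others were Dsg3, Dsc3 and Pkp1, whose separation was in part built in by the filter, so these counts are a description too. Both comparisons use the same differentiated libraries, so they are not independent. Fewer cells of a type and less RNA per cell cannot be told apart in bulk libraries.

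Between BCAM high and BCAM low, 2 of the 10 genes differed: Pkp3 was higher and Pkp2 lower in BCAM high. All genes tested were called in 7.02% of cases here, 2.43% higher and 4.59% lower. All 10 had overlapping libraries, where 1.50% of all genes did not overlap (0.500% higher and 0.999% lower in BCAM high), and their median log2 fold change was 0.14 (all genes 0.00). Marker sums of other cells went both ways. Secretory sums (7 of 7 genes detected) were 25769 to 34792 CPM in BCAM high and 34446 to 75056 CPM in BCAM low. Immune sums (5 of 5 genes) were 43.5 to 333 CPM and 411 to 1992 CPM. Medians of ciliated, suprabasal and endothelial sums were also lower in BCAM high. Higher in BCAM high were the medians of fibroblast (423 against 240 CPM) and smooth muscle and myoepithelial sums (24.2 against 5.33 CPM). Those of thyroid (26.5 against 5.05 CPM) and parathyroid sums (3.3 against 1.55 CPM) were higher as well. The part of these in the desmosome values was not tested.

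**Figure D1:**
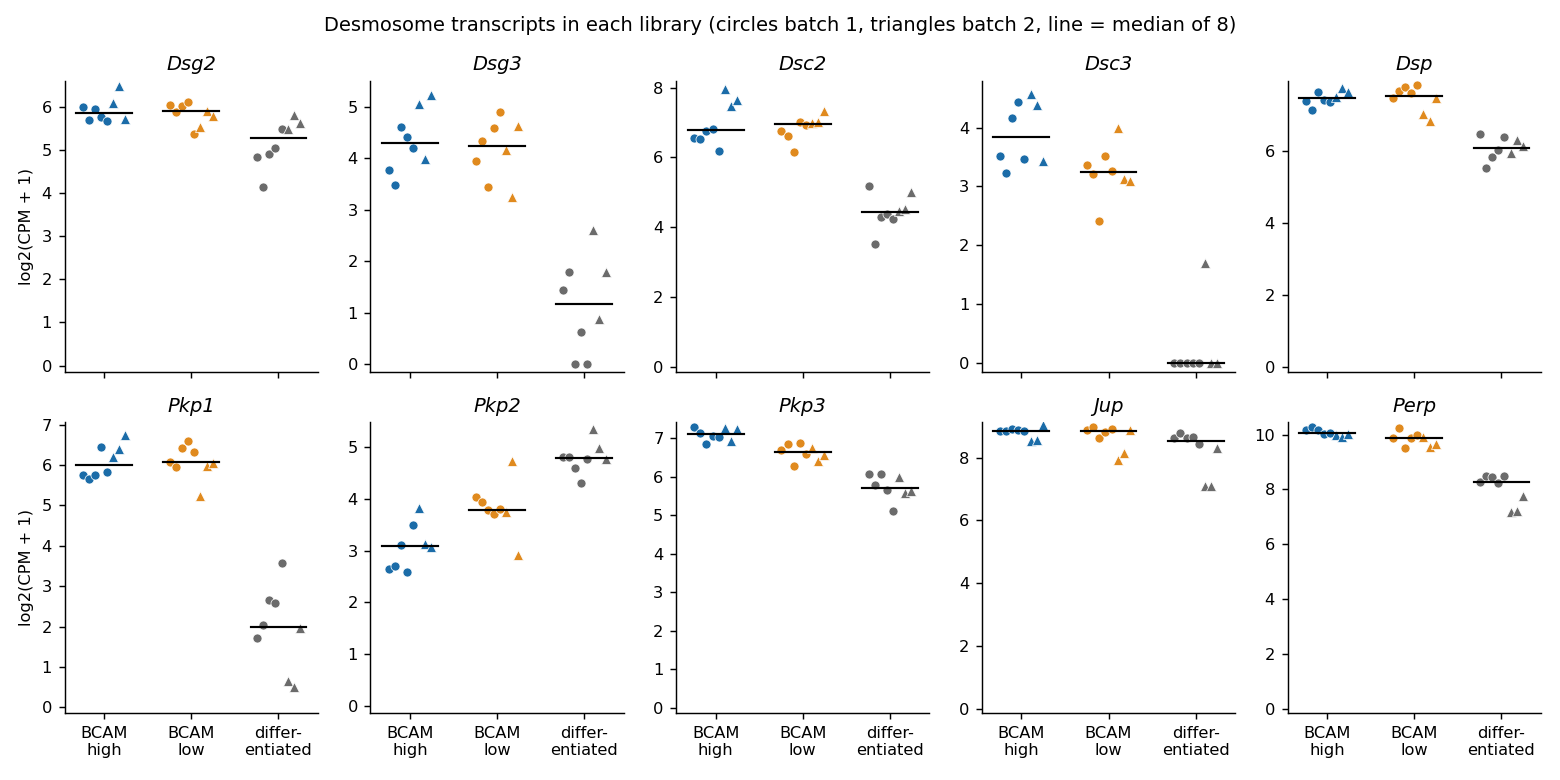
Level of each desmosome gene in every library on a log2(CPM + 1) axis, with 8 libraries per group (circles batch 1, triangles batch 2) and a line at the median. The differentiated libraries sit lowest for 9 of the 10 genes by median, and highest for Pkp2.

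Dsg2, the desmoglein found in nearly all desmosome-bearing cells, was measured at 49.7 to 88.1 CPM in BCAM high libraries (median 57.2), 40.3 to 68.1 in BCAM low (median 58.3) and 16.7 to 54.6 in differentiated libraries (median 37.9). The differentiated libraries reached into the range of both BCAM groups. Dsg2 was 1.64-fold higher in BCAM high than in differentiated cells (95% interval 1.31 to 2.06, edgeR QL, adjusted p = 9.19e-04) and 1.57-fold higher in BCAM low (1.25 to 1.97, edgeR QL, adjusted p = 0.00354). In batch 2 the differentiated libraries lay at 43.5 to 54.6 CPM, and neither call held there alone (log2 fold changes 0.48 and 0.10).

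Dsg3, the desmoglein of basal layers in stratified epithelia, was near the detection limit in differentiated cells. It ran from 10.2 to 36.8 CPM in BCAM high (median 18.8) and from 8.57 to 28.8 CPM in BCAM low (median 18), but from 0 to 5.08 CPM in the differentiated group (median 1.29). All 8 differentiated libraries together held 25 counts of Dsg3 and 2 of them held none, where 3 counts would be worth 1.58 to 1.64 CPM. No differentiated library reached the lowest BCAM library. The fitted difference was 12.7-fold in BCAM high (7.08 to 22.9, edgeR QL, adjusted p = 6.69e-08) and 11.6-fold in BCAM low (6.39 to 20.9, edgeR QL, adjusted p = 2.96e-07). Between the BCAM groups, neither desmoglein passed the test: the fold of BCAM high over BCAM low was 1.05 for Dsg2 (0.841 to 1.31) and 1.10 for Dsg3 (0.709 to 1.71).

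Dsc2, the widely expressed desmocollin, was 5.91-fold higher in BCAM high than in differentiated cells (4.53 to 7.72, edgeR QL, adjusted p = 2.49e-11) and 5.33-fold higher in BCAM low (4.09 to 6.94, edgeR QL, adjusted p = 1.45e-10). Its level was 72 to 249 CPM in BCAM high (median 109), 70.2 to 159 in BCAM low (median 123) and 10.5 to 35.1 in the differentiated group (median 20.4). Every BCAM library thus lay above every differentiated library. Within BCAM high, the 3 libraries of batch 2 lay at 177 to 249 CPM and the 5 of batch 1 at 72 to 111 CPM, with no overlap. BCAM low showed a smaller split, at 125 to 159 CPM against 70.2 to 129 CPM.

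Dsc3, the desmocollin of basal layers, had the highest fitted fold of the 10 genes over the differentiated cells, and the least certain. It lay at 8.41 to 22.6 CPM in BCAM high (median 13.7) and at 4.35 to 15 CPM in BCAM low (median 8.46). Of the differentiated libraries, 7 held no count, where 3 counts would be worth 1.23 to 1.86 CPM, and replicate 6 held all 4 counts of the group (2.26 CPM). The fitted log2 fold change was 5.66 in BCAM high (SE 0.56, edgeR QL, adjusted p = 2.23e-09) and 4.94 in BCAM low (SE 0.57, edgeR QL, adjusted p = 8.17e-08). Without differentiated replicate 6 these fits were 8.48 and 7.76, so only the direction is well determined. Dsc3 was higher in BCAM high than in BCAM low in 8 of 8 same-numbered libraries, yet the 1.65-fold difference did not pass (1.03 to 2.63, edgeR QL, adjusted p = 0.229). On the TPM scale it did: limma on log2(TPM + 0.1) gave 1.33 (adjusted p = 0.0335), where the median of all genes was 0.26, and on log2(TPM + 1) it gave 1.00 (adjusted p = 0.00288), where that median was 0.23. Few counts weigh much in the TPM of a short transcript. Dsc3-202, of 674 bases, was at 1.66 ± 1.95 TPM in BCAM high and 0.00538 ± 0.0102 TPM in BCAM low (mean ± SD). Dsc3-201, of 5333 bases, was at 2.96 ± 1.53 and 1.39 ± 0.494 TPM. The part of Dsc3-202 in the TPM result was not tested.

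Plakophilins moved in opposite directions. Pkp1, the plakophilin of stratified epithelia, ran from 49.1 to 106 CPM in BCAM high (median 63.6), from 36.6 to 96.1 in BCAM low (median 66.1) and from 0.427 to 10.9 in differentiated libraries (median 2.99). The BCAM groups overlapped each other across most of their range, and no differentiated library came near them. The differentiated libraries held 57 counts of Pkp1 in all, from 1 to 20 each, and 3 of the 8 reached the level of the filter, so the size of its fold is uncertain. The fitted Pkp1 level was 18.8-fold higher in BCAM high than in differentiated cells (11.8 to 29.9, edgeR QL, adjusted p = 3.10e-10) and 18.2-fold higher in BCAM low (11.5 to 29, edgeR QL, adjusted p = 6.74e-10). The fold between the BCAM groups was 1.03 (0.728 to 1.45, edgeR QL, adjusted p = 0.955).

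Pkp2, the plakophilin of simple epithelia and heart muscle, ran the other way. BCAM high libraries held 5 to 13.2 CPM (median 7.5), BCAM low libraries 6.56 to 25.7 CPM (median 12.8) and differentiated libraries 18.9 to 39.5 CPM (median 26.7). BCAM high lay wholly below the differentiated group, and BCAM low overlapped the differentiated range through its replicate 7 alone, at 25.7 CPM. Pkp2 was 3.52-fold lower in BCAM high than in differentiated cells (2.6 to 4.76, edgeR QL, adjusted p = 1.30e-07) and 1.92-fold lower in BCAM low (1.43 to 2.58, edgeR QL, adjusted p = 0.00109). It was also 1.83-fold lower in BCAM high than in BCAM low (1.35 to 2.47, edgeR QL, adjusted p = 0.014). These values rest on 220 to 423 counts of Pkp2 per group. On the TPM scale, BCAM high minus BCAM low was -0.60 for Pkp2 (limma on log2(TPM + 0.1), adjusted p = 0.129) and BCAM low minus differentiated -0.47 (limma, adjusted p = 0.13), so neither was called. Relative to the median of all genes on that scale these were -0.86 and -0.95. In batch 2 alone they were -0.67 (edgeR QL, adjusted p = 0.541) and -1.10 (edgeR QL, adjusted p = 0.0894), again without a call.

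Pkp3, the plakophilin with the broadest epithelial range, was graded over the groups. It lay at 115 to 157 CPM in BCAM high (median 137), at 77.3 to 116 CPM in BCAM low (median 99.5) and at 33.3 to 66.2 CPM in differentiated libraries (median 51.6). The BCAM groups touched only at their edges, between 115 and 116 CPM. Pkp3 was 2.57-fold higher in BCAM high than in differentiated cells (2.17 to 3.05, edgeR QL, adjusted p = 5.47e-10) and 1.86-fold higher in BCAM low (1.57 to 2.2, edgeR QL, adjusted p = 1.88e-06). Between the BCAM groups it was 1.39-fold higher in BCAM high (1.18 to 1.63, edgeR QL, adjusted p = 0.0147), in 8 of 8 same-numbered libraries. That call was lost in batch 1 alone and in batch 2 alone (log2 fold changes 0.41 and 0.57, edgeR QL, adjusted p = 0.11 and 0.102) and with transcript length offsets (0.42, edgeR QL, adjusted p = 0.163). It was also lost on log2(TPM + 0.1), at 0.67 (limma, adjusted p = 0.0552), but not on log2(TPM + 1), at 0.66 (limma, adjusted p = 0.0436).

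Jup encodes plakoglobin, which desmosomes share with adherens junctions, and it differed least from the differentiated cells. It ran from 371 to 520 CPM in BCAM high (median 463), from 240 to 500 in BCAM low (median 462) and from 135 to 441 in the differentiated group (median 368). All groups overlapped over both batches, and the lowest values in the differentiated group, 135 and 136 CPM, belonged to replicates 7 and 6 of batch 2. Within each batch BCAM high lay above the differentiated group. The ranges were 461 to 478 against 342 to 441 CPM in batch 1, and 371 to 520 against 135 to 317 CPM in batch 2. Jup was 1.47-fold higher in BCAM high than in differentiated cells (1.17 to 1.85, edgeR QL, adjusted p = 0.00866), and the 1.32-fold difference of BCAM low did not pass (1.05 to 1.66, edgeR QL, adjusted p = 0.0657). The BCAM high call was lost in either batch alone (0.24 in batch 1, edgeR QL, adjusted p = 0.0566, and 1.09 in batch 2, edgeR QL, adjusted p = 0.0715). BCAM low passed without BCAM low replicate 6 (0.45, edgeR QL, adjusted p = 0.041), without differentiated replicate 2 (0.45, edgeR QL, adjusted p = 0.0485) and without differentiated replicate 8 (0.48, edgeR QL, adjusted p = 0.0366). It also passed on log2(TPM + 0.1), at 0.80 (limma, adjusted p = 0.00903), where the median of all genes was 0.48, and on log2(TPM + 1), at 0.79 (limma, adjusted p = 0.00837), where that median was 0.40. With the replicate number as a block, BCAM low passed as well (0.42, edgeR QL, adjusted p = 0.0198). The fold between the BCAM groups was 1.12 (0.891 to 1.4).

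Dsp, desmoplakin, was at almost equal levels in the BCAM groups and lower in differentiated cells. Its range was 140 to 218 CPM in BCAM high (median 178), 113 to 229 in BCAM low (median 187) and 45.8 to 89.3 in differentiated libraries (median 67.2). No differentiated library reached a BCAM library. Dsp was 2.64-fold higher in BCAM high than in differentiated cells (2.17 to 3.21, edgeR QL, adjusted p = 4.98e-09) and 2.63-fold higher in BCAM low (2.16 to 3.2, edgeR QL, adjusted p = 1.06e-08). The fold of BCAM high over BCAM low was 1.00 (0.832 to 1.21, edgeR QL, adjusted p = 0.99).

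Perp was the most abundant of the 10 transcripts in the BCAM groups. It ran from 966 to 1249 CPM in BCAM high (median 1056), from 721 to 1203 in BCAM low (median 928) and from 145 to 359 in the differentiated group (median 307). The BCAM groups overlapped each other, and both lay above all differentiated libraries. Perp was 4.10-fold higher in BCAM high than in differentiated cells (3.41 to 4.93, edgeR QL, adjusted p = 1.08e-12) and 3.45-fold higher in BCAM low (2.88 to 4.14, edgeR QL, adjusted p = 2.55e-11). Between the BCAM groups it was higher in BCAM high in 8 of 8 same-numbered libraries, by 1.19-fold (0.997 to 1.42), and did not pass (edgeR QL, adjusted p = 0.276). It passed on log2(TPM + 1), at 0.47 (limma, adjusted p = 0.0484), where the median of all genes was 0.23, and not on log2(TPM + 0.1), at 0.47 (limma, adjusted p = 0.0565).

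**Figure D2:**
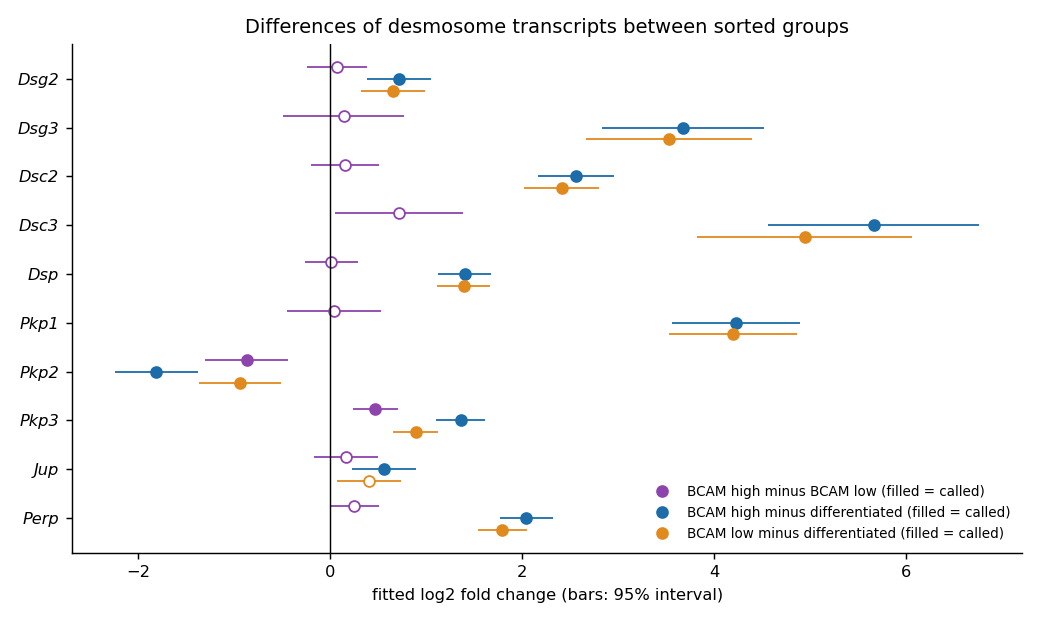
Fitted log2 fold change of each gene (horizontal axis) in the 3 comparisons, with bars of the 95% interval. Filled points passed the test and open points did not. Pkp2 is the gene with all 3 points left of 0, and Pkp3 and Pkp2 are the filled points between the BCAM groups.

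The calls against differentiated cells were also taken without the libraries of either batch, since the differentiated group split by batch. Batch 1 alone gave 8 higher and 1 lower of the 10 genes in BCAM high, where 16.0% of all genes were called higher and 18.6% lower. It gave 8 and 1 in BCAM low, where 16.8% and 17.3% of all genes were. Batch 2 alone gave 7 and 1 in BCAM high (12.7% and 15.4% of all genes) and 7 and 0 in BCAM low (8.70% and 8.23%). Each of these counts includes Dsg3, Dsc3 and Pkp1 among the higher genes. They passed the filter through the BCAM groups, so the counts are a description. On the TPM scale the calls over all genes were lopsided. With limma on log2(TPM + 0.1), 88.6% of called genes were higher in BCAM high than in differentiated cells (46.8% in edgeR QL) and 87.3% higher in BCAM low (48.8%). The median of all genes was 0.75 and 0.48 on that scale. Between the BCAM groups the share was 75.8% (34.7%), around a median of 0.26. Relative to those medians, Perp was 2.07 and 1.87 above differentiated cells, Pkp1 4.18 and 4.30, Dsp 1.36 and 1.44, and Pkp2 -1.82 and -0.95.

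Differences between the groups depended on batch for Pkp1 and Perp. Pkp1 in differentiated libraries was 2.3 to 10.9 CPM in batch 1 and 0.427 to 2.88 CPM in batch 2. In BCAM high it was 49.1 to 85.8 CPM in batch 1 and 71.8 to 106 CPM in batch 2. The log2 difference of these groups was thus 2.51 larger in batch 2 (SE 0.62, edgeR QL interaction, adjusted p = 0.00836). Perp in differentiated libraries was 303 to 359 CPM in batch 1 and 145 to 218 CPM in batch 2, without overlap. Its log2 difference from differentiated cells was 0.82 larger in batch 2 for BCAM high (SE 0.21, edgeR QL interaction, adjusted p = 0.00919) and 0.79 larger for BCAM low (SE 0.21, edgeR QL interaction, adjusted p = 0.0105). These are 3 calls over the 3 comparisons. Without differentiated replicate 6 or without replicate 7 there was 1, and without differentiated replicate 8 or BCAM low replicate 8 there were 6. Such a dependence was called for 8.69% and 11.4% of all genes in these comparisons, and for 1.06% between the BCAM groups. The sums of basal, secretory and immune markers in differentiated libraries were lower in batch 2 too (medians 290 against 1966 CPM for 8 basal genes, and 4937 against 23175 CPM for 5 immune genes), and that of thyroid genes was higher. The part of these cells in the desmosome values was not tested.

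Between the BCAM groups no dependence on batch was called. The share of all genes with an unadjusted interaction p under 0.05 was not counted, so the 3 genes under it are only described. Their log2 differences were larger in batch 2 by 0.79 for Dsp (SE 0.24, edgeR QL interaction, adjusted p = 0.121), 1.07 for Pkp1 (SE 0.37, edgeR QL interaction, adjusted p = 0.199) and 0.75 for Dsc2 (SE 0.31, edgeR QL interaction, adjusted p = 0.313). Dsp was 140 to 201 CPM in BCAM high and 177 to 229 CPM in BCAM low in batch 1, but 182 to 218 CPM and 113 to 178 CPM in batch 2. The libraries of batch 2 were thus ordered the other way and did not overlap. Pkp1 in batch 2 likewise lay at 71.8 to 106 CPM in BCAM high and 36.6 to 65.6 CPM in BCAM low. In the BCAM low libraries of batch 2 the sum of 6 ciliated genes had a median of 216 CPM, against 6.88 CPM in batch 1 and 4.71 CPM in BCAM high of batch 2. Whether other cells in those libraries bear on the desmosome values was not tested.

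Levels of different genes are compared in TPM. By median TPM, the order in BCAM high was Perp (672), Jup (268), Pkp3 (76.9), Dsc2 (28.7), Dsp (23.8), Pkp1 (16.3), Dsg2 (11), Dsc3 (4.64), Dsg3 (4.04) and Pkp2 (3.08). The ranges of Perp, Jup and Pkp3 did not touch, nor did those of Dsg2 and Dsc3, while the other neighbours overlapped, Dsc3 and Dsg3 with 4 of 8 libraries each way. BCAM low kept Perp (497), Jup (217), Pkp3 (46.7), Dsc2 (26.7), Dsp (23.6), Pkp1 (16.2) and Dsg2 (10.3) in the same places, followed by Pkp2 (4.44), Dsg3 (2.79) and Dsc3 (1.72). In the differentiated group Jup (132) stood above Perp (107) in 6 of 8 libraries, then came Pkp3 (18.9), Pkp2 (5.75), Dsp (5.72), Dsg2 (4.05), Dsc2 (3.29), Pkp1 (0.534), Dsg3 (0.167) and Dsc3 (0). Jup levels include short processed transcripts, such as Jup-206 of 667 bases (mean 18.9 TPM in differentiated libraries). The coding Jup-202 and Jup-201 had means of 58.4 and 16.2 TPM there, and Perp-201 96.9 TPM. The place of Jup above Perp thus rests on the processed transcripts too. Pkp2 was thus last in BCAM high and stood next to Dsp in differentiated cells, although its range overlapped its neighbours in both.

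The makeup of each family followed from these levels and is a description of the same values. Pkp2 gave 3.19% ± 1.13 of plakophilin TPM in BCAM high, compared with 7.2% ± 3.49 in BCAM low and 26.5% ± 8.49 in differentiated libraries (mean ± SD, n = 8). Pkp1 gave 17.3% ± 5.74, 21.8% ± 5.79 and 2.48% ± 2.71, and Pkp3 held the largest share in all 3 groups (79.5% ± 6.17, 71% ± 7.65 and 71% ± 9.26). The differentiated libraries thus differed in which minor plakophilin stood beside Pkp3. Dsg3 gave 26.4% ± 10.2 of desmoglein TPM in BCAM high, compared with 23.6% ± 9.34 in BCAM low and 5.83% ± 7.11 in differentiated libraries. Dsc3 gave 13.3% ± 7.68, 6.27% ± 1.69 and 1.6% ± 4.54 of desmocollin TPM. In every library of every group, Dsg2 and Dsc2 were the larger members of their pairs. Over all 10 genes, Perp gave 59.1% ± 3.16, 59.2% ± 4.79 and 37.8% ± 3.83 of the summed TPM, and Jup 24.5% ± 3.08, 24.3% ± 4.67 and 45.4% ± 6.62. The Jup shares include its short processed transcripts.

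**Figure D3:**
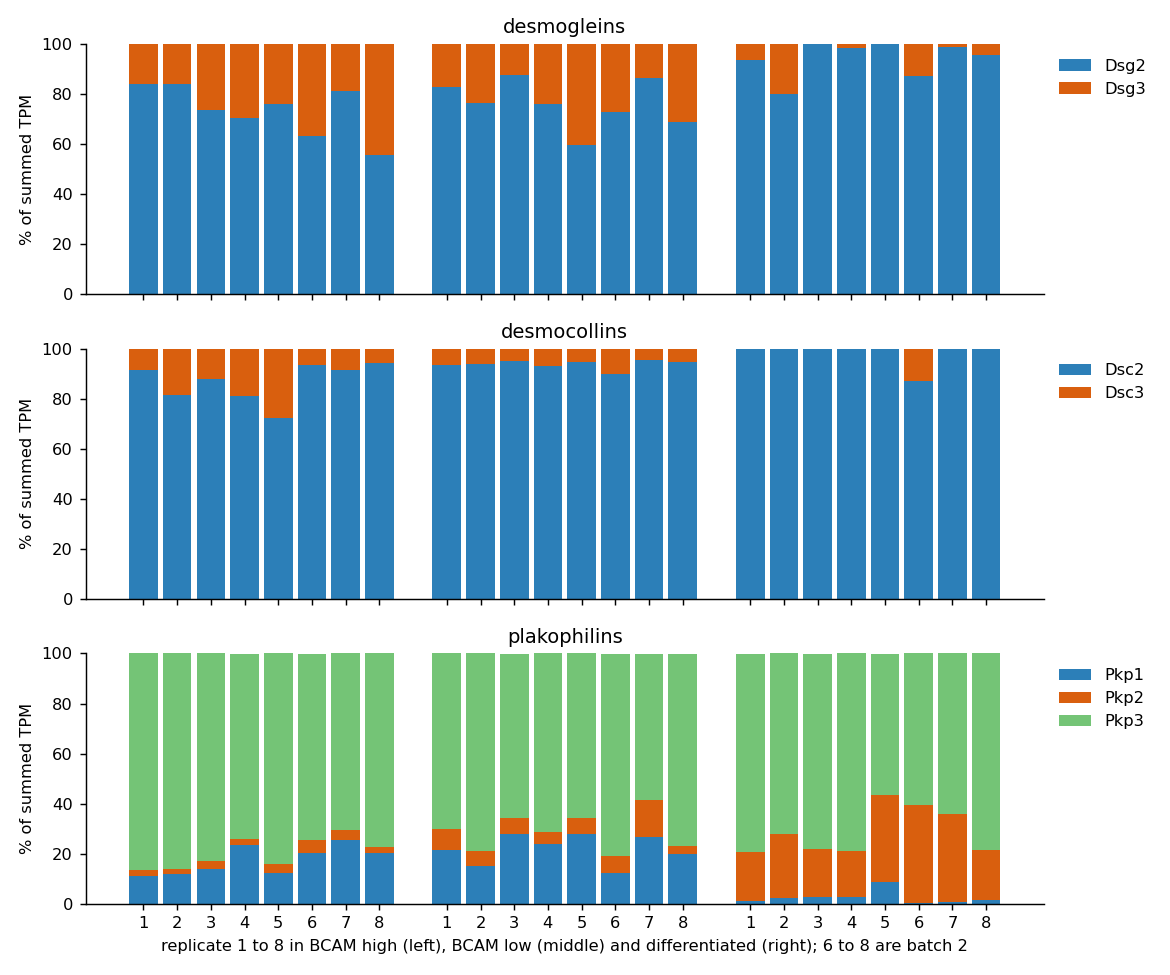
Share of each desmoglein, desmocollin and plakophilin in the summed TPM of its family (vertical axis, percent), 1 bar per library. Pkp2 takes 18.5% to 39% of the plakophilin bar in differentiated libraries and 2.16% to 5.36% in BCAM high, and Dsc3 appears in 1 differentiated library.

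Transcript use within a gene did not pass the test in any comparison. Shares of 19 transcripts of 9 genes gave 47 tests (exact two-sided permutation test within batch, adjusted over the 47), of which 0 passed and 5 had an unadjusted p under 0.05. The smallest p the test allows with 8 libraries per group is 3.97e-04. Dsp-202, the short desmoplakin form whose splice junction is printed above, gave 75.8% ± 11 of Dsp TPM in BCAM high, compared with 77.5% ± 17.1 in BCAM low and 85.9% ± 15.7 in differentiated libraries (mean ± SD, n = 8). Its difference between BCAM high and BCAM low was -1.69 percentage points (exact permutation p = 0.8, adjusted p = 0.853). Reads of 38 bases seldom cross that junction, so the split is an estimate from reads over the whole transcripts. Jup-201 gave 11.4% ± 3.58 of Jup TPM in BCAM high and 23.7% ± 10.8 in BCAM low (exact permutation p = 0.00278, adjusted p = 0.0839). Dsc2-202 gave 58% ± 15.5 of Dsc2 TPM in BCAM high and 15.3% ± 22.8 in the 7 differentiated libraries with at least 20 counts of Dsc2 (exact permutation p = 0.00357, adjusted p = 0.0839).

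**Figure D4:**
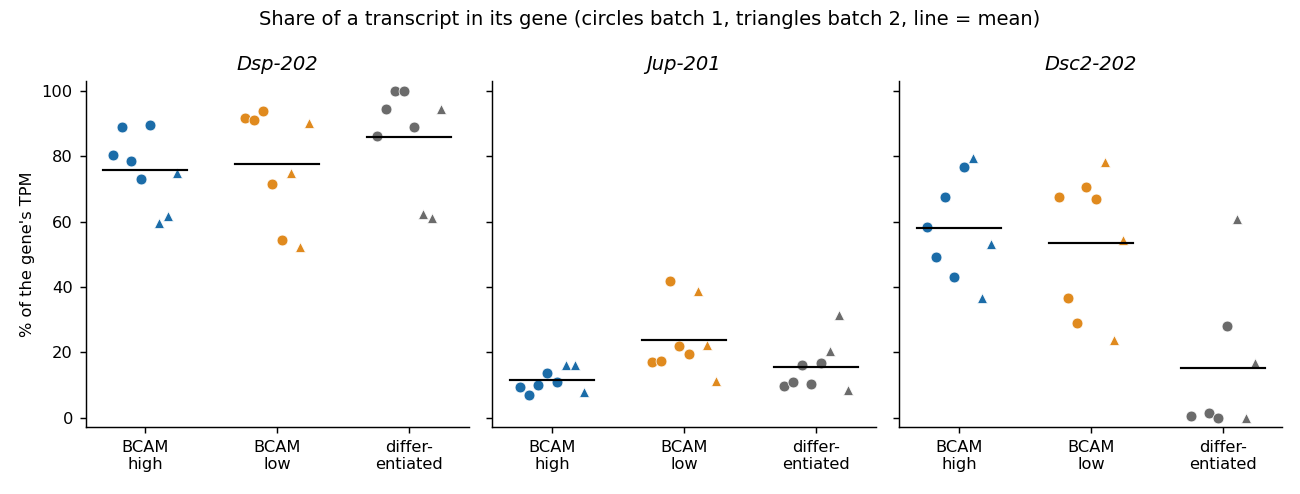
Share of Dsp-202, Jup-201 and Dsc2-202 in the TPM of their gene (vertical axis, percent) in every library with at least 20 counts of the gene, with a line at the mean. Dsp-202 is the larger Dsp form in all libraries, from 52.2% to 100%, and the groups overlap in all panels.

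Further desmosome genes were measured beside the 10. Of 11 listed, the skin-type cadherins Dsg1a, Dsg1b, Dsg1c, Dsg4 and Dsc1 and the cornified-layer gene Cdsn had too few counts to test, with at most 10 counts of any in a group. Of the 5 tested (Pkp4, Ppl, Evpl, Kazn and Grhl1), 3 were lower in BCAM high than in BCAM low and 0 higher (4.59% and 2.43% of all genes), with a median log2 fold change of -0.46 (all genes 0.00). Grhl1, a transcription factor known to act on desmosomal cadherin genes, was at 9.37 ± 2.89 CPM in BCAM high, compared with 23 ± 7.28 in BCAM low and 35.7 ± 6.52 in differentiated cells (mean ± SD, n = 8). It fell by 1.28 on the log2 scale between the BCAM groups (SE 0.21, edgeR QL, adjusted p = 3.16e-04). Envoplakin (Evpl, log2 fold change -1.08, SE 0.3, edgeR QL, adjusted p = 0.0299) and periplakin (Ppl, -0.46, SE 0.13, edgeR QL, adjusted p = 0.0237), plakins of upper layers, were the other genes called. Against differentiated cells, Grhl1 was called lower in BCAM high (-1.92) and in BCAM low (-0.64), and Evpl higher in BCAM low (0.90). The sum of 4 suprabasal and hillock genes had medians of 540, 1945 and 1414 CPM in the 3 groups. It was highest in BCAM low, as the means of Evpl and Ppl were, while Grhl1 was highest in differentiated cells. The part of these cells in the values was not tested.

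Of 8 listed regulators of desmosomes 7 were tested, since Golga7b had too few counts. Between the BCAM groups 0 were called (edgeR QL), where 7.02% of all genes were. Of the 7, 1 had an unadjusted p under 0.05, as did 2537 of the 12211 genes tested. In BCAM high 4 were higher than in differentiated cells and 0 lower, where 19.4% of all genes were higher (median 0.47, all genes 0.02), among them the kinase gene Gsk3b (0.53, SE 0.11, edgeR QL, adjusted p = 2.82e-04), the scaffold gene Erbin (0.52, SE 0.16, edgeR QL, adjusted p = 0.0101) and Adam17, a protease that sheds cell-surface proteins (0.47, SE 0.18, edgeR QL, adjusted p = 0.0422). BCAM low had 2 of the 7 higher and 0 lower, where 16.3% of all genes were higher, namely Erbin (0.43) and the related protease gene Adam10 (0.40). All these groups overlapped.

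The neighbouring junctions were mixed. As background, 4.59% of all genes were lower in BCAM high than in BCAM low, and 41.3% and 33.5% of all genes were called against differentiated cells. Of 11 adherens junction genes, 1 was lower in BCAM high than in BCAM low, the nectin gene Nectin4 (-1.64, SE 0.23, edgeR QL, adjusted p = 2.86e-05), and 10 were not called. Against differentiated cells 3 were higher and 3 lower in each BCAM group. P-cadherin (Cdh3), the classical cadherin of basal layers, was at 72.2 ± 20.4 CPM in BCAM high, compared with 46.3 ± 21.6 in BCAM low and 1.1 ± 1.52 in differentiated cells (mean ± SD, n = 8), a log2 difference of 5.91 and 5.23 from the last. Cdh3 and Nectin1, both among the higher genes of each BCAM group, held 17 and 18 counts in all differentiated libraries. They passed the filter on low counts through the BCAM groups. A difference from differentiated cells was thus built into their being tested, and their values are a description. Of 9 tight junction genes, 4 were lower and 0 higher in BCAM high than in BCAM low, led by Marveld3 (-1.18), Tjp3 (-1.02) and Cgn (-0.79), with a median of -0.41. Against differentiated cells 2 were higher and 5 lower in BCAM high (median -0.63), and 2 higher and 2 lower in BCAM low (median -0.11), with the polarity gene Pard3 higher in both (1.63 and 1.43). Of the keratins that desmosomes anchor, the basal keratin Krt5 was higher in BCAM high than in BCAM low (0.84, SE 0.24, edgeR QL, adjusted p = 0.0344) and the simple-epithelial keratin Krt8 lower (-0.72, SE 0.15, edgeR QL, adjusted p = 0.00353), as Pkp3 and Pkp2 were.

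Across the 24 libraries the levels of the 10 genes varied with each other, which is another view of the group differences. Pearson's r of log2 CPM had a median of 0.73 over the 45 pairs, with the highest value for Pkp1 and Perp (0.95) and the lowest for Pkp2 and Perp (-0.83). Every pair with Pkp2 was negative, from -0.83 to -0.49. After the means of each group and batch were removed, the median was 0.07, from -0.67 for Dsg2 and Dsg3 to 0.51 for Dsc2 and Dsp. Libraries share their group, batch and depth, so these values describe these libraries only.

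**Figure D5:**
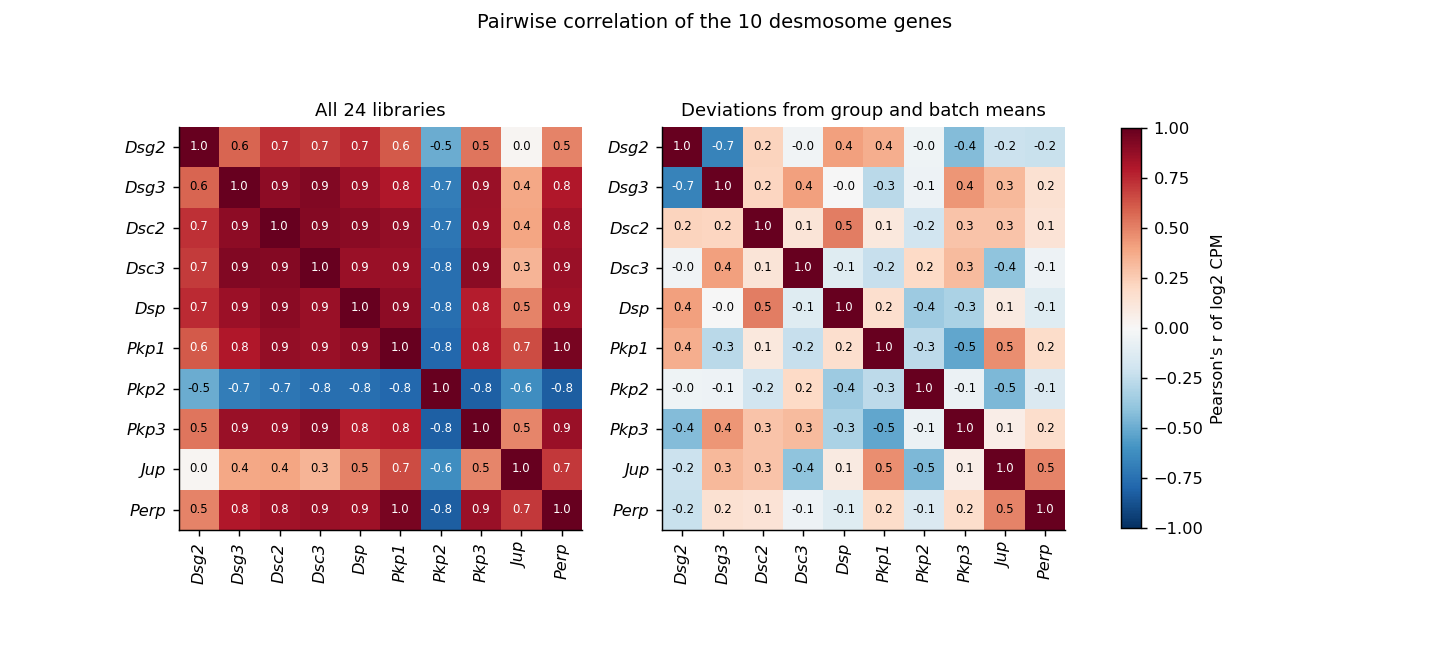
Pearson's r of log2 CPM for each pair of genes over 24 libraries (left) and for deviations from the mean of each group and batch (right), from -1 (blue) to 1 (red). The Pkp2 row is blue on the left, and most of the colour is gone on the right.

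Among 8952 other genes with a mean of at least 10 CPM, the closest patterns over the 24 libraries were found for Perp, with the water channel gene Aqp3 (r = 0.986), Trim29 (0.984) and the serpin gene Serpinb5 (0.983). Pkp1 was also closest to Aqp3 (0.979). Dsc3 was close to Ifi202b (0.96), Papln (0.957) and the hemidesmosomal integrin gene Itgb4 (0.957), and Dsc2 to Gas6 (0.958), Ptk7 (0.953) and Col7a1 (0.953), the collagen of anchoring fibrils. Dsg3 had Rgs12 (0.941), Hs6st2 (0.931) and the keratin gene Krt17 (0.93), and Pkp3 had Coq8a (0.94), Procr (0.935) and the basal keratin gene Krt14 (0.935). Dsp was nearest to Sh3pxd2a (0.948), Jup to Bcl6 (0.94) and Dsg2 to Abca1 (0.909). Pkp2 was nearest to the lipid-handling genes Osbpl2 (0.906) and Sptlc2 (0.888) and the respiratory gene Ndufa4 (0.877).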

How the data were processed

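RNA was measured in 24 libraries, read in pairs of 38 bases. The submitters' processing notes name kallisto 46.1, Picard and GRCm39. Per the file headers, each deposited table gives an estimated count and a TPM value per transcript. The deposited lengths and effective lengths served only for offsets. Transcript identifiers were matched to GENCODE M21 (GRCm38): 116374 matched and 1123 did not. Estimated counts were summed per gene and rounded, and amplified reads are not independent molecules, so limits set by counts cover counting error only. edgeR 4.0.16 (R 4.3.3) fitted all 24 libraries at once, with TMM factors, its default filter, group means and batch as a covariate, and another with group-by-batch means tested interactions. SEs are the absolute change over the square root of F. Log2 CPM used a prior count of 2. Transcript shares were tested for transcripts with a mean share of at least 10%, in libraries with at least 20 counts of the gene and groups with at least 5 such libraries. Alternatives used limma 3.58.1 and DESeq2 1.42.0, and the scripts were tested on simulated data. All 10 genes are named; of each list, at most the 3 called genes with the largest change per comparison, and for each gene up to 3 of like pattern. The genes and lists were chosen with earlier results of these data known. Dsg3, Dsc3 and Pkp1 passed the filter through the BCAM groups, with at most 9, 4 and 20 counts in any differentiated library. Basal, secretory, ciliated, suprabasal, thyroid, parathyroid, immune, fibroblast and smooth muscle marker sums are given beside the results.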

Additional observations from a re-analysis of the deposited data

Results flagged for a closer look

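Of 30 sets of 8 libraries (10 genes in 3 groups), 4 had an extreme library by Dixon's test at the 95% level. Chance gives about 1 in 20 for normally distributed values, which CPM need not be, so the flags are a description. Dsg2 in BCAM high was highest in replicate 7, at 88.1 CPM with the next library at 67.1. Dsc3 in the differentiated group was highest in replicate 6, at 2.26 CPM with the other libraries at 0, so any count there would have been flagged. Pkp1 in the differentiated group was highest in replicate 5, at 10.9 CPM with the next at 5.28. Pkp2 in BCAM low was highest in replicate 7, at 25.7 CPM with the next at 15.4.

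Differences that changed between batch 1 and batch 2 by the interaction test were those of Pkp1 (BCAM high minus differentiated, 2.51 on the log2 scale, edgeR QL, adjusted p = 0.00836) and Perp (0.82 for BCAM high, edgeR QL, adjusted p = 0.00919, and 0.79 for BCAM low, edgeR QL, adjusted p = 0.0105). These rest in part on the 3 differentiated libraries of batch 2: without replicate 6 or without replicate 7 of that group 1 dependence was called in place of 3. Of all genes, 8.69% (BCAM high) and 11.4% (BCAM low) were called so against differentiated cells.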

How the results depend on the processing

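The fold changes of the 10 genes in the 3 comparisons were recomputed under 12 alternatives (360 values) and without each library in turn (720 values). Direction and call were unchanged in 328 and 703 of these, 15 and 0 lost a call, 6 and 3 gained one, and 11 and 14 changed sign. All changes of sign concerned BCAM high minus BCAM low, in genes without a call there, and the cause was not tested. On the log2 scale, Dsp was -0.003 with a filter of 10 CPM in 8 libraries, -0.071 with transcript length offsets, -0.002 without the batch covariate and -0.277 in batch 1 alone. Dsg2 was -0.005 with length offsets and -0.09 in batch 1. Pkp1 was -0.08 with length offsets, -0.007 with only the BCAM groups fitted and -0.39 in batch 1. Dsg3 was -0.188 and Dsc2 -0.146 in batch 1. With 1 library left out, Dsg2 lay at -0.003 to 0.119, Dsg3 at -0.012 to 0.302, Dsp at -0.078 to 0.057 and Pkp1 at -0.095 to 0.118. Of the 10 genes, 2 were called between the BCAM groups by edgeR, but 1 with length offsets, 1 by limma on log2(TPM + 0.1), 3 on log2(TPM + 1), 1 in batch 1 alone and 0 in batch 2 alone. The 1 on log2(TPM + 0.1) was Dsc3, so both edgeR calls were lost there, and the 3 on log2(TPM + 1) were Dsc3, Pkp3 and Perp. Over all genes, BCAM high and BCAM low differed in 857 by edgeR, 545 without the batch covariate, 1365 with only these groups fitted and 465 in batch 2 alone. BCAM high differed from differentiated cells in 5044 genes by edgeR, 7688 by limma on log2(TPM + 0.1) and 7713 on log2(TPM + 1), and BCAM low in 4086 by edgeR and 2067 in batch 2 alone. Without each library in turn these counts were 683 to 982, 4699 to 5156 and 3708 to 4137. Dependence on batch, called 3 times, was called 6 times with no filter on low counts and 1 to 6 times without each library in turn. No transcript share passed under any alternative tried. The 4 and 25 counts of Dsc3 and Dsg3 in the differentiated group limit the size of their folds.

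With the replicate number as a block, 864, 5129 and 4136 genes were called in the 3 comparisons, with 2, 10 and 10 of the desmosome genes, and dependence on batch 6 times. Jup passed there in BCAM low against differentiated cells (0.42, edgeR QL, adjusted p = 0.0198), and the other calls of the 10 genes did not change under the block. The labels do not say what a shared number stands for, so the fit behind the main calls leaves it out. Deviations of same-numbered libraries from the means of their group and batch gave correlations of 0.0315 to 0.176 over 24 pairs. Of these 7 were over 0.1, and their size does not decide whether the libraries are paired. In 23 of these 24 pairs (8 numbers in 3 comparisons), the library of the first group correlated best with the same number in the second. This is a sign of pairing in the data that the labels do not state. Same-numbered libraries were higher in BCAM high than in BCAM low 8 of 8 times for Dsc3, Pkp3 and Perp. The number was 5 for Jup, 4 for Dsg3 and Dsc2, 3 for Dsg2, Dsp and Pkp1, and 2 for Pkp2. Such counts are a description and not a test.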
